A study of Mus musculus with 2 samples.

Results

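The mitotic spindle and checkpoint genes examined here are 39 named mouse genes whose products build the spindle, attach chromosomes to it, watch over those attachments, compact and separate the chromosomes and divide the cell. They were chosen by name from a list and not by their level, although earlier results of these data were known at the time. All 39 were found among the 20250 protein-coding genes with a name in the RNA-seq data. One library came from *Ebf1* -/- pre-pro-B cells and one from *Rag2* -/- pro-B cells, both on a C57BL/6 background, so the libraries stand for progenitors held before and after commitment to the B cell lineage. The pre-pro-B cells came from livers of female mid-gestation embryos and were grown with Il-7 (5 ng/mL), Scf (10 ng/mL) and Flt3l (10 ng/mL). The pro-B cells came from adult male bone marrow and received Il-7 (5 ng/mL) alone. Both were cultured on OP-9 cells, a mouse stromal line, from which they were washed off before lysis. Genotype, sex, age, tissue and cytokines therefore differ together with cell type and cannot be told apart, and with 1 library per cell type no difference has a replicate check and no p-value is given.

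Many of these mRNAs are made anew in each cell cycle, with levels that climb through the G2 phase and peak near mitosis. The spindle assembly checkpoint holds the anaphase-promoting complex (APC/C), a ubiquitin ligase, inactive until every kinetochore is bound to microtubules. Its release leads to the destruction of securin and cyclin B, which frees separase to cut cohesin and lets the chromatids part. Early B cell progenitors divide rapidly under Il-7 and pass through large pro-B and pre-B cell stages as cycling cells. In RNA from a whole culture, more cells in mitosis and more mRNA in each dividing cell cannot be told apart.

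Many genes of mitosis carry a cell cycle homology region (CHR) close to the transcription start, at which the DREAM and MuvB complexes are known to bind, often downstream of CCAAT boxes that bind NF-Y. The promoters of the members, from 250 bases before to 50 bases after the start in RefSeq on GRCm38.p6, were searched on both strands for the CHR letters TTTGAA, for CCAAT and for the E2F letters TTTCCCGC or TTTGGCGC. Promoters were found for 33 of 39 members (35 promoters, since *Prc1* and *Bub3* each have 2). *Aurkb*, *Incenp*, *Kif20a*, *Smc4*, *Spc24* and *Tpx2* were not matched. The 160 bases from 130 before to 30 after the start are given below for 7 members, with CHR and CCAAT matches on either strand in capitals. *Cdc20*, *Ube2c*, *Top2a*, *Kif11* and *Cenpa* hold both motifs and act in chromosome separation, DNA untangling, spindle assembly or the centromere, and *Kif23* and *Fzr1* are the 2 members that differed least between the libraries.
Cdc20 (chr4:118437314-118437473, minus strand): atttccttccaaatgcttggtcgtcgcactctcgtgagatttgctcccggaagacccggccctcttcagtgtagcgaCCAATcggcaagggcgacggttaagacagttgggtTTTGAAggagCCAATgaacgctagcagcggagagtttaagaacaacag
Ube2c (chr2:164769799-164769958, plus strand): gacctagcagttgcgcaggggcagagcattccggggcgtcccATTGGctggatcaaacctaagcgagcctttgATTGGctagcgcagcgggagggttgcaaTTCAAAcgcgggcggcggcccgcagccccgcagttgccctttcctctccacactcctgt
Top2a (chr11:99024160-99024319, minus strand): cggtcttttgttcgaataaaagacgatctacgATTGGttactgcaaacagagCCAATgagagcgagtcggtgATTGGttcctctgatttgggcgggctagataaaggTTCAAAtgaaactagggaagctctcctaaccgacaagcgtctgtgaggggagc
Kif11 (chr19:37376252-37376411, plus strand): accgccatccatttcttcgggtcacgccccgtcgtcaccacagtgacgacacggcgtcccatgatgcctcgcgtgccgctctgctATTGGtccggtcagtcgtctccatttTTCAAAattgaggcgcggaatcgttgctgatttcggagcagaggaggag
Cenpa (chr5:30666756-30666915, plus strand): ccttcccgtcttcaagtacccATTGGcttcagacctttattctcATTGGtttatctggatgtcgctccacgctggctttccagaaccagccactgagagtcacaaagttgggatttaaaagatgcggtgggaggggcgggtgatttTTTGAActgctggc
Kif23 (chr9:61946770-61946929, minus strand): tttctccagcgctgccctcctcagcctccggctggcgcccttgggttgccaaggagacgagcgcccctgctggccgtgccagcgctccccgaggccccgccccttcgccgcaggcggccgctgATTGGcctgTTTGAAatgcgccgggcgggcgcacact
Fzr1 (chr10:81378341-81378500, minus strand): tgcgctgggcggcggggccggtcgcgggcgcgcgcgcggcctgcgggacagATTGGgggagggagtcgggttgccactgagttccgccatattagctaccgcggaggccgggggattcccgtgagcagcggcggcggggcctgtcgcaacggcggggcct

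Positions are counted from 0 at the start, with bases before it negative. In *Cdc20* the CHR begins at -18, between CCAAT matches at -53 and -8. The CHR of *Ube2c* reads on the other strand at -29, and that promoter holds 6 CCAAT matches, of which the 2 nearest the start stand in capitals here. In *Top2a* a CHR at -23 follows 3 CCAAT matches within the printed stretch, and in *Kif11* one at -19 follows a CCAAT match at -45. The CHR of *Cenpa* lies after the start, at 16. *Kif23*, whose level differed least of all members, holds a CHR at 2 and a CCAAT match at -7, and *Fzr1* holds a CCAAT box and no CHR in its window.

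A CHR was present in 26 of the 35 member promoters (74.3%), against 17.9% of the 32851 promoters in the table. Counted by gene, a CHR was present in 24 of 33 members. Within 50 bases of the start it was present in 23 of 35 (65.7%), against 4.94% of all promoters. CCAAT was found in 25 of 35 (71.4%, against 37.4%), and both motifs together in 22 of 35 (62.9%, against 6.95%). E2F letters were found in 4 of 35 (11.4%, against 1.56%), at *Kif18a*, *Kif15*, *Ncapg* and *Ncapd2*. Over promoters of the expressed genes counted below, the shares were 12.1% for a CHR and 3.21% for one within 50 bases. They were 38% for CCAAT and 3.12% for E2F letters. Promoters of the other mitotic genes described below held a CHR in 42.1% and CCAAT in 61.8%. In 1 member promoter, that of *Cdca8*, a CHR and a CCAAT match shared a base. No CHR letters stood in the windows of *Birc5*, *Bub1*, *Cenpe*, *Fzr1*, *Kif18a*, *Mad2l1*, *Ncaph*, *Nuf2* and *Pttg1*. These are matches of letters and not sites known to be bound.

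**Figure D1:**
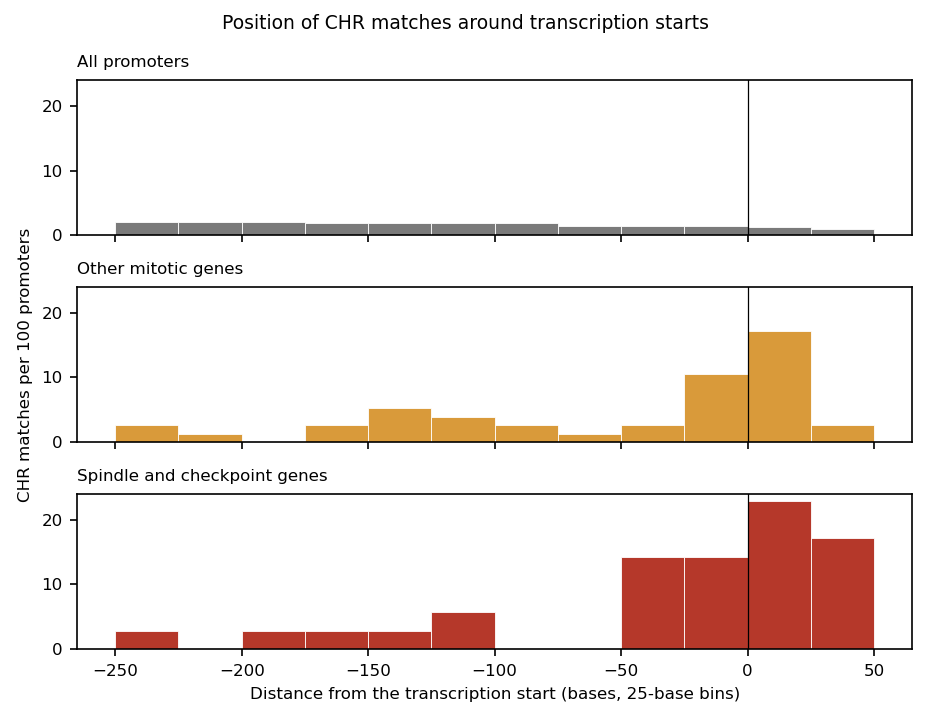
CHR matches by distance from the transcription start, in 25-base bins from 250 bases before to 50 bases after it, as matches per 100 promoters for all promoters, other mitotic genes and the spindle and checkpoint genes. In the spindle and checkpoint genes the bins next to the start rise to 22.9 matches per 100 promoters, against 1.31 in the same bin of all promoters.

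All 39 members had a higher FPKM in pro-B cells than in pre-pro-B cells. FPKM, which count fragments per kilobase of transcript and per M reads, were summed here over the protein-coding transcripts of a gene. Differences are given as log2 of (pro-B FPKM + 1) over (pre-pro-B FPKM + 1). At least a 2-fold difference on that scale was reached by 37 of 39 members in the direction of pro-B cells and by 0 members in the other. Over the 10528 genes with an FPKM of 1 or more in either library, 12.2% were 2-fold or more above the pre-pro-B level and 19.1% 2-fold or more lower. The median log2 difference of the members was 1.97 (interquartile range 1.69 to 2.42), beside -0.14 over all genes counted (interquartile range -0.74 to 0.42). Summed, the members had 1052 FPKM in the pre-pro-B library against 4520.2 in the pro-B library, which is 0.337% and 1.33% of the FPKM of all protein-coding transcripts.

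**Figure D2:**
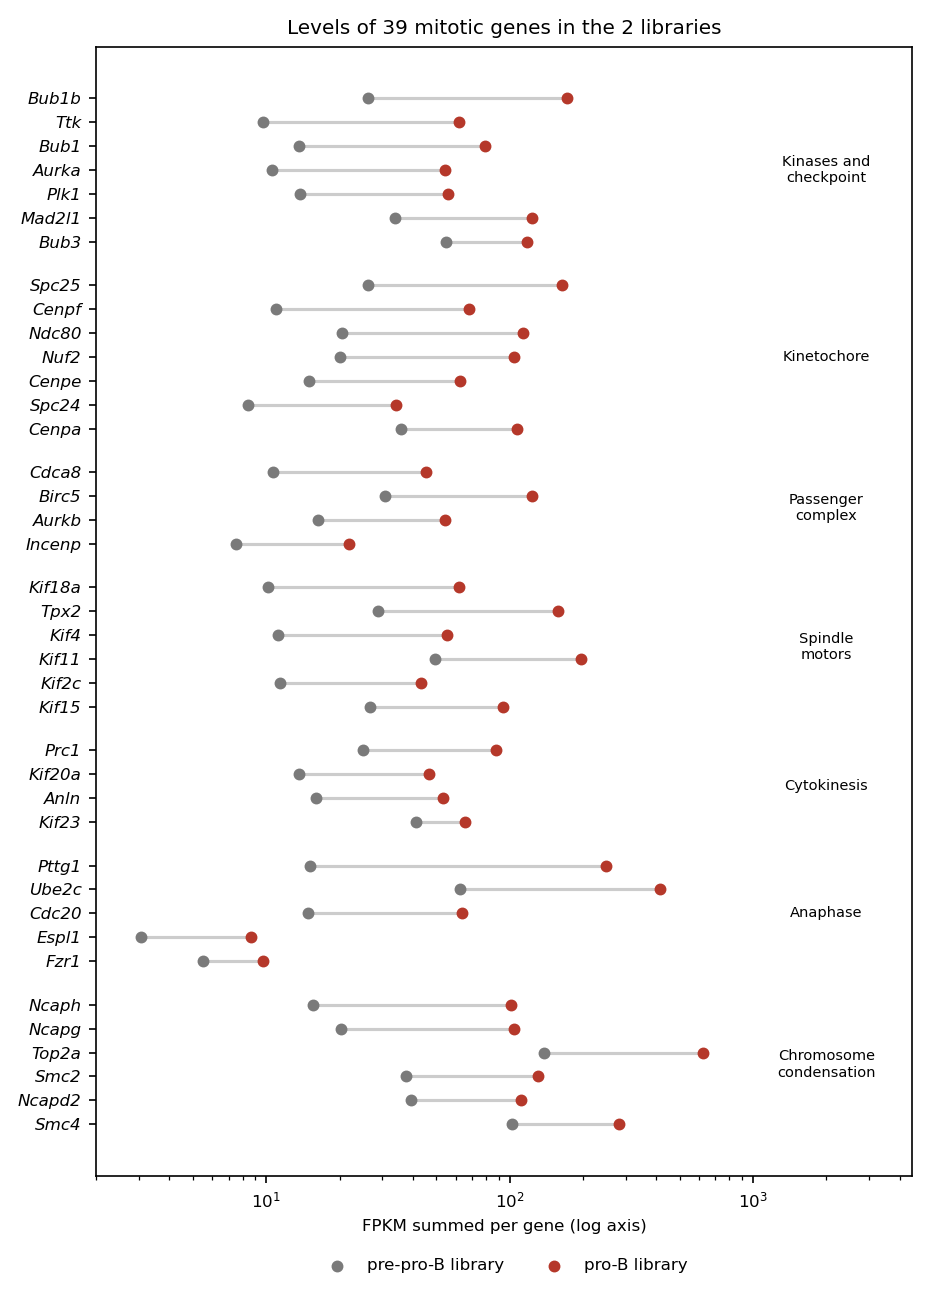
FPKM summed per gene (log axis) of the 39 genes in the pre-pro-B library (grey) and the pro-B library (red), grouped by role and ordered by the log2 difference, 1 library each. Every red point lies to the right of its grey partner, with the widest gap at Pttg1 and the narrowest at Kif23.

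Members kept much of their order between the libraries. As ratios of FPKM without a pseudocount, the differences ran from 1.59-fold to 16.5-fold with a median of 4.06-fold. A ratio of at least 3 was reached by 31 members (908 of 10528 genes), of at least 4 by 22 (666 genes) and of at least 5 by 14 (537 genes), and 23 members lay between 3-fold and 6-fold. Genes at 0 in the pre-pro-B library have no ratio. They are among the 10528 but not in these counts, which are therefore lower limits for all genes. The rank correlation of the members' FPKM between the libraries was 0.84 (Spearman, 39 genes), while that of mean level with log2 difference was 0.13 and that of transcript length with log2 difference was -0.16. These correlations describe genes that share the same 2 libraries and are not independent replicates.

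**Figure D3:**
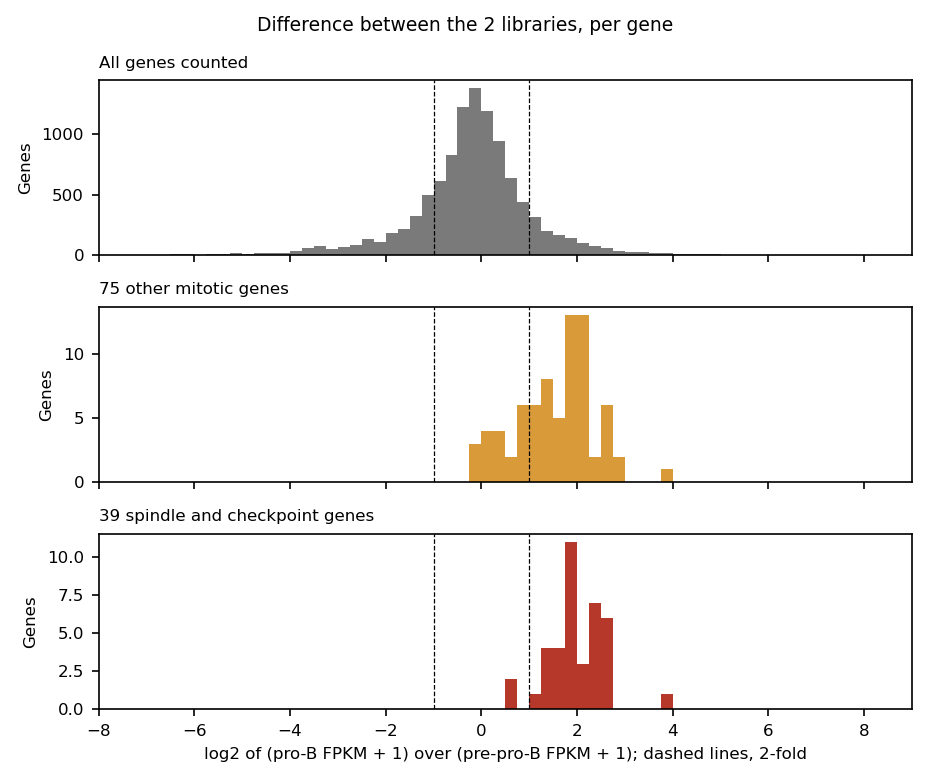
Number of genes (vertical axes, each with its own scale) by log2 difference between the libraries in bins of 0.25, for the 10528 genes counted, the 75 other mitotic genes and the 39 members, with dashed lines at 2-fold. The members lie to the right of the upper line except for 2 genes, while all genes counted centre just below 0.

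The authors' Cuffdiff run gives a 95% confidence interval for each transcript. What makes up the width of these intervals was not tested. Without replicate libraries, they hold no measured spread between cultures of the same cell type. The counts that follow take the intervals as given. For the most abundant transcript of each gene, the intervals of the libraries did not overlap for 0 of 39 members, against 4.83% of all genes counted. The pro-B FPKM lay above the pre-pro-B interval for 35 of 39 members, against 12.1% of all genes. *Kif23*, *Fzr1*, *Incenp* and *Smc4* were the exceptions. The pre-pro-B FPKM lay below the pro-B interval for 2 of 39, *Kif18a* and *Ube2c*, against 2.36% of all genes. The intervals are wide. At the nominal 90 M reads of 97 bp, the most abundant transcripts correspond to about 970 to 64959 fragments in pre-pro-B cells (median 4318) and 1966 to 291921 in pro-B cells (median 20180). These fragment numbers are approximate, since the same nominal depth and not the mapped reads of each library was used.

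**Figure D4:**
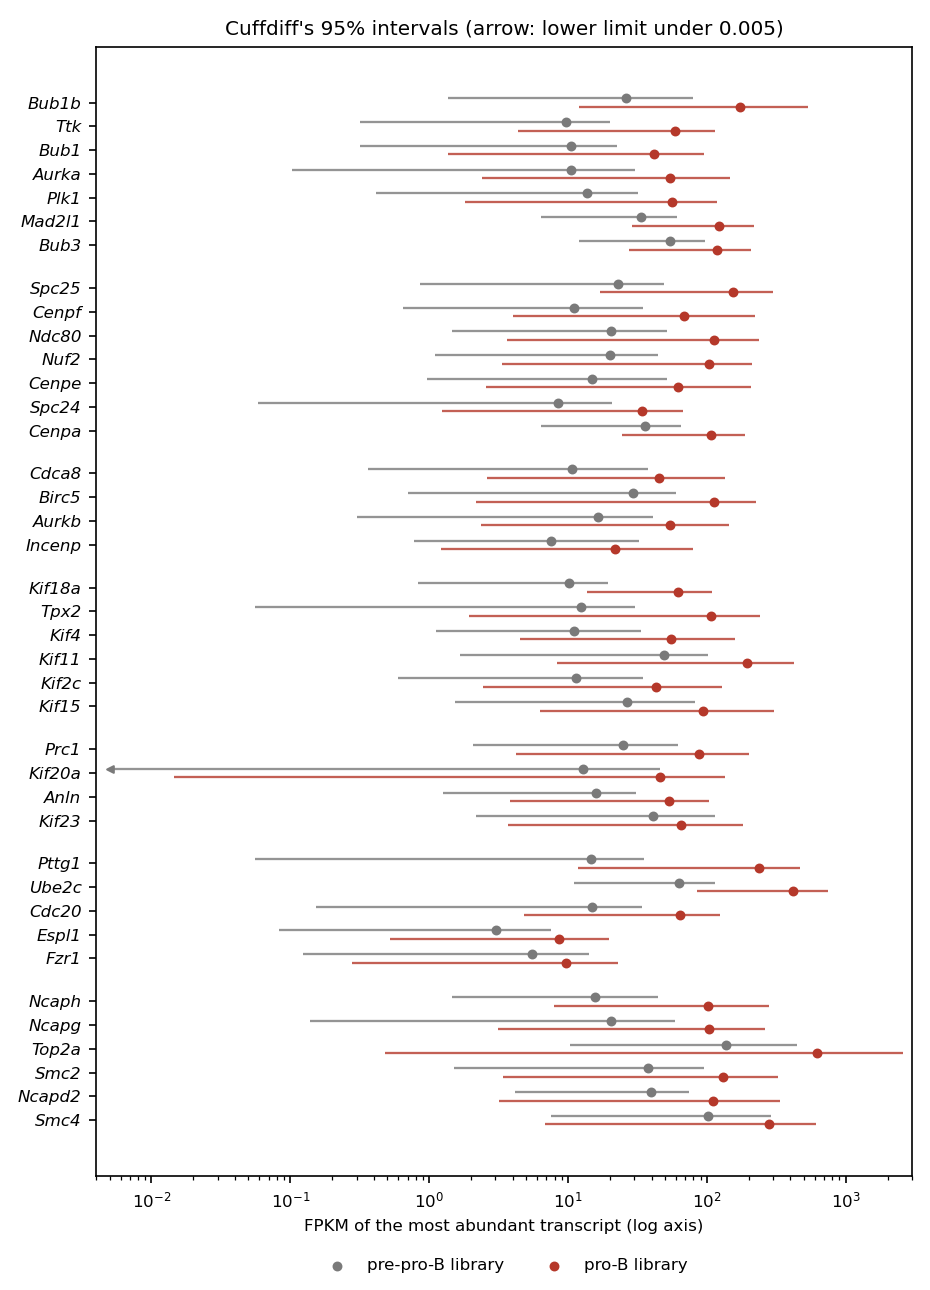
FPKM of the most abundant transcript of each of the 39 genes (log axis) with Cuffdiff's 95% interval as a line, pre-pro-B library in grey and pro-B library in red, in the same order as the plot of levels. The 2 lines overlap in every gene, and the red point lies beyond the end of the grey line in 35 of 39.

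The mitotic kinases and checkpoint proteins were all 2-fold or more above the pre-pro-B level (7 of 7, median log2 difference 2.25). The FPKM of *Bub1b*, which encodes the checkpoint protein BubR1 that holds Cdc20, was 26.2 (interval 1.38 to 79.6) in pre-pro-B and 172 (interval 12.02 to 538) in pro-B cells, with a log2 difference of 2.66. *Mad2l1*, encoding Mad2, the other Cdc20 inhibitor of the checkpoint, had 33.7 (interval 6.34 to 61.1) in pre-pro-B and 123 (interval 28.9 to 217) in pro-B cells (1.84). For *Bub3*, the partner of Bub1 and BubR1, the FPKM was 54.6 (interval 12.1 to 97.1) in pre-pro-B and 118 (interval 27.6 to 209) in pro-B cells, and its log2 difference of 1.1 was the smallest of the group. Bub3 also had the highest pre-pro-B level of the 7. *Ttk*, the Mps1 kinase that starts checkpoint signalling at the kinetochore, had 9.72 in pre-pro-B and 62.2 in pro-B cells (2.56), of which its main transcript, NM_009445, accounted for 9.72 (interval 0.318 to 20.2) and 59.2 (interval 4.38 to 114). Its shorter transcript, NM_001110265, was listed at 0 in the pre-pro-B library and had 3.05 (interval 0 to 15.7) in the pro-B library. *Bub1*, the kinase that recruits the rest of the checkpoint, had 13.6 in pre-pro-B and 79.4 in pro-B cells (2.46), of which its more abundant transcript, NM_009772, accounted for 10.4 (interval 0.3195 to 22.6) and 41.6 (interval 1.37 to 94.9). The other *Bub1* transcript, NM_001113179, had 3.20 (interval 0 to 10.2) and 37.9 (interval 0.368 to 89.1), so that its share of the gene was 23.5% in one library and 47.7% in the other. These transcripts are nearly equal in length (4334 and 4337 bases) and the intervals of each overlap between the libraries. *Plk1*, the polo kinase of mitotic entry and exit, had 13.8 (interval 0.413 to 31.7) in pre-pro-B and 55.95 (interval 1.81 to 118) in pro-B cells (1.95). *Aurka*, the kinase of the centrosome and spindle poles, had 10.6 (interval 0.104 to 30.4) in pre-pro-B and 54.3 (interval 2.41 to 146) in pro-B cells (2.25).

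Of the kinetochore genes, 7 of 7 were 2-fold or more above the pre-pro-B level, with a median log2 difference of 2.32. The Ndc80 complex, 4 subunits that grip the microtubule end, was represented in full. *Ndc80* had 20.4 (interval 1.45 to 51.3) in pre-pro-B and 113 (interval 3.64 to 238) in pro-B cells (2.42). Its direct partner *Nuf2* had 20.04 (interval 1.101 to 44.5) in pre-pro-B and 104 (interval 3.37 to 212) in pro-B cells (2.32), at 0.981 of the *Ndc80* level in the pre-pro-B library against 0.917 in the pro-B library. *Spc25*, of the end that faces the centromere, had 26.2 in pre-pro-B and 164 in pro-B cells (2.6), of which its main transcript, NM_001199124, accounted for 22.96 (interval 0.856 to 48.8) and 155 (interval 17.1 to 301). *Spc24*, the partner of *Spc25*, had 8.44 (interval 0.0586 to 20.8) in pre-pro-B and 34.2 (interval 1.23 to 67.5) in pro-B cells (1.9) and was the lowest subunit in both libraries, at 0.413 and 0.301 of *Ndc80*. The order *Spc25*, *Ndc80*, *Nuf2*, *Spc24* was thus the same in both libraries, although all of these intervals overlap within a library. *Cenpa*, the histone variant that marks the centromere, had 35.9 (interval 6.41 to 65.4) in pre-pro-B and 107 (interval 24.5 to 189.6) in pro-B cells and, at 1.56, the smallest difference of the group. *Cenpf*, a large protein of the outer corona, had 11.01 (interval 0.654 to 34.7) in pre-pro-B and 68.4 (interval 3.99 to 220.4) in pro-B cells (2.53). *Cenpe*, the kinesin that carries chromosomes to the spindle equator, had 14.99 (interval 0.971 to 51.9) in pre-pro-B and 62.4 (interval 2.58 to 208) in pro-B cells (1.99).

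The chromosomal passenger complex corrects faulty attachments and later moves to the cell middle, and all 4 of its subunits were 2-fold or more above the pre-pro-B level (median 1.82). *Birc5*, encoding survivin, had 30.9 in pre-pro-B and 124 in pro-B cells (1.97), of which its main transcript, NM_009689, accounted for 29.3 (interval 0.705 to 59.7) and 112 (interval 2.17 to 227). *Aurkb*, the kinase of the complex, had 16.4 (interval 0.303 to 41.03) in pre-pro-B and 54.4 (interval 2.38 to 143) in pro-B cells (1.67). *Cdca8*, encoding borealin, had 10.6 (interval 0.364 to 37.4) in pre-pro-B and 45.3 (interval 2.62 to 135) in pro-B cells (1.99). *Incenp*, the scaffold, was the lowest subunit with 7.54 (interval 0.774 to 32.7) in pre-pro-B and 21.9 (interval 1.22 to 80.1) in pro-B cells (1.43), and its pro-B FPKM lay inside the pre-pro-B interval.

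The spindle group, 5 kinesin motors and the spindle assembly factor Tpx2, was 2-fold or more above the pre-pro-B level in 6 of 6 cases (median 2.1). *Kif11*, the Eg5 motor that pushes spindle poles apart, was the most abundant with 49.2 (interval 1.68 to 102) in pre-pro-B and 196 (interval 8.29 to 424) in pro-B cells (1.97). *Kif15*, which keeps a spindle bipolar alongside it, had 26.7 (interval 1.54 to 82.1) in pre-pro-B and 94.1 (interval 6.23 to 302) in pro-B cells (1.78). *Kif18a*, which dampens chromosome movements at the plate, had 10.2 (interval 0.833 to 19.5) in pre-pro-B and 61.9 (interval 13.8 to 109.7) in pro-B cells, with the pre-pro-B FPKM below the pro-B interval (2.49). *Kif2c*, the microtubule-depolymerising MCAK, had 11.4 (interval 0.6003 to 34.5) in pre-pro-B and 43.3 (interval 2.43 to 129) in pro-B cells (1.84). *Kif4*, a chromokinesin on chromosome X, had 11.1 (interval 1.12 to 33.3) in pre-pro-B and 55.4 (interval 4.54 to 159.8) in pro-B cells (2.22). *Tpx2*, the activator of Aurora A, had 28.8 in pre-pro-B and 158 in pro-B cells over 5 transcripts (2.42). Its main transcript, NM_001141978, accounted for 12.4 (interval 0.0558 to 30.3) and 106 (interval 1.92 to 242), which was 43.1% of the gene in the pre-pro-B library against 67.2% in the pro-B library, with overlapping intervals.

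Cytokinesis genes had the smallest median of the role groups (1.69), and 3 of 4 were 2-fold or more above the pre-pro-B level. *Kif23* (chromosome 9 of mm9, 61765087 to 61794606, minus strand), the motor of the centralspindlin complex, had 41.2 (interval 2.16 to 115) in pre-pro-B and 65.5 (interval 3.67 to 183) in pro-B cells, a log2 difference of 0.66 and the smallest of all 39. *Prc1*, which bundles the microtubules of the central spindle, had 25.01 (interval 2.07 to 61.5) in pre-pro-B and 88.1 (interval 4.23 to 201) in pro-B cells (1.78). *Anln*, encoding anillin of the contractile ring, had 15.98 (interval 1.25 to 31.03) in pre-pro-B and 53.2 (interval 3.83 to 103) in pro-B cells (1.67). *Kif20a*, a kinesin of the central spindle, had 13.6 in pre-pro-B and 46.6 in pro-B cells (1.71), of which its main transcript, NM_009004, accounted for 12.7 (interval 0 to 45.6) and 45.6 (interval 0.0147 to 135). By level, *Kif23* was the highest of the 4 in pre-pro-B cells and came after *Prc1* in pro-B cells.

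The genes of anaphase spanned the widest range of the groups, and 4 of 5 were 2-fold or more above the pre-pro-B level (median 2.03). *Pttg1* (chromosome 11 of mm9, 43233752 to 43239753, minus strand), encoding securin, the inhibitor of separase, had 15.1 in pre-pro-B and 248 in pro-B cells, a 16.5-fold ratio and a log2 difference of 3.95. Its main transcript, NM_001131054, accounted for 14.6 (interval 0.0557 to 35.1) and 237 (interval 11.9 to 466), and at 740 bases it is the shortest transcript among the members. *Espl1*, which encodes separase itself, had 3.05 (interval 0.0834 to 7.51) in pre-pro-B and 8.68 (interval 0.524 to 19.7) in pro-B cells (1.26), the lowest level of any member in both libraries. *Ube2c* (chromosome 2 of mm9, 164595398 to 164604322, plus strand), the ubiquitin-conjugating enzyme of the APC/C, had 62.5 (interval 11.03 to 114) in pre-pro-B and 414 (interval 84.8 to 742) in pro-B cells (2.71), the next largest difference. The APC/C activators stood apart from each other. *Cdc20*, which acts up to anaphase, had 14.8 (interval 0.153 to 33.9) in pre-pro-B and 63.6 (interval 4.84 to 123) in pro-B cells (2.03). *Fzr1* (chromosome 10 of mm9, 80828967 to 80841261, minus strand), encoding Cdh1, which takes over at mitotic exit and in G1, had 5.51 (interval 0.123 to 14.1) in pre-pro-B and 9.69 (interval 0.2805 to 22.8) in pro-B cells (0.72).

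Chromosome condensation genes were the most abundant group and 6 of 6 were 2-fold or more above the pre-pro-B level (median 1.97). *Top2a* (chromosome 11 of mm9, 98854257 to 98885503, minus strand), the topoisomerase that untangles sister chromatids, had the highest FPKM of all members in both libraries, 138 (interval 10.3 to 447) in pre-pro-B and 622 (interval 0.477 to 2569.8) in pro-B cells (2.16). The 5 subunits of condensin I, the ring that compacts chromosomes, differed among themselves. *Smc4* had 102 (interval 7.49 to 288) in pre-pro-B and 281 (interval 6.78 to 606) in pro-B cells (1.45), and its partner *Smc2* 37.4 (interval 1.52 to 95.7) in pre-pro-B and 130.4 (interval 3.38 to 326) in pro-B cells (1.77). The subunit gene *Ncapd2* had 39.4 (interval 4.15 to 74.6) in pre-pro-B and 111 (interval 3.18 to 334) in pro-B cells (1.47). *Ncapg* had 20.4 (interval 0.139 to 58.8) in pre-pro-B and 104 (interval 3.11 to 264) in pro-B cells (2.3), and *Ncaph*, the subunit that closes the ring, 15.5 (interval 1.45 to 44.3) in pre-pro-B and 101 (interval 7.93 to 280.2) in pro-B cells (2.63). Relative to *Smc2*, *Ncapg* and *Ncaph* stood at 0.544 and 0.415 in the pre-pro-B library and at 0.80 and 0.776 in the pro-B library. *Smc4* stood at 2.73 and 2.15 of the *Smc2* level in the same order. The levels of the 5 subunits ran from 15.5 to 102 in the pre-pro-B library and from 101 to 281 in the pro-B library, and the intervals of the subunits overlap within each library.

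The machinery around these genes was examined with 75 other mitotic genes, of which 56 were 2-fold or more above the pre-pro-B level, 0 were 2-fold or more lower and 19 lay within 2-fold (median 1.67). The 5 with the largest differences were *Cdc25b*, *Sgo2a*, *Melk*, *Cenpm* and *Nusap1*. *Cdc25b*, a phosphatase that activates Cdk1, had 2.93 in pre-pro-B and 60.1 in pro-B cells (3.96). *Sgo2a*, a shugoshin that guards centromeric cohesion, had 6.84 in pre-pro-B and 58.7 in pro-B cells (2.93). *Melk*, a kinase gene active in dividing cells, had 4.67 in pre-pro-B and 38.4 in pro-B cells (2.8). *Cenpm*, of the inner centromere network, had 4.02 in pre-pro-B and 29.4 in pro-B cells (2.6), and *Nusap1*, a microtubule-bundling protein, 33.99 in pre-pro-B and 211 in pro-B cells (2.6). By subgroup, the genes of mitotic entry such as *Cdk1*, *Ccnb1* and *Foxm1* were 2-fold or more higher in 16 of 16 cases (median 2.03) and those of the spindle and furrow in 15 of 15 (median 1.99). Of the centromere and linker genes 22 of 28 passed 2-fold (median 1.37), and of condensin II subunits with *Mki67* 3 of 4. These subgroups were formed after values were seen, so their counts describe the list and test nothing.

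The core subunits of the APC/C stood within 2-fold. Of 12 genes, 0 reached it in either direction, and the log2 differences ran from -0.16 to 0.81 with a median of 0.18. *Cdc27*, a core subunit gene, had 70.1 in pre-pro-B and 66.1 in pro-B cells (-0.09), and *Anapc5*, the most abundant, 99.8 in pre-pro-B and 141 in pro-B cells (0.5). The APC/C's own enzyme and activator, *Ube2c* and *Cdc20*, had differences of 2.71 and 2.03, and its inhibitor *Fbxo5*, encoding Emi1, had 16.98 in pre-pro-B and 76.5 in pro-B cells (2.11). The subgroup was set apart after its values were seen. Without it, 56 of 63 other mitotic genes were 2-fold or more higher, with a median of 1.83. Letters of the CHR within 50 bases of the start stood in 0 of 13 promoters of the core subunits (11 genes matched) and in 24 of 63 (38.1%) of the other mitotic genes without them. Over all genes counted that share was 3.21%. It was 9.52% among genes 2-fold or more above the pre-pro-B level (6.37% with the members and other mitotic genes left out). Among genes within 2-fold it was 2.38%, and among those 2-fold or more lower 2.33%. Whether a CHR bears on the differences between the libraries was not tested.

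**Figure D5:**
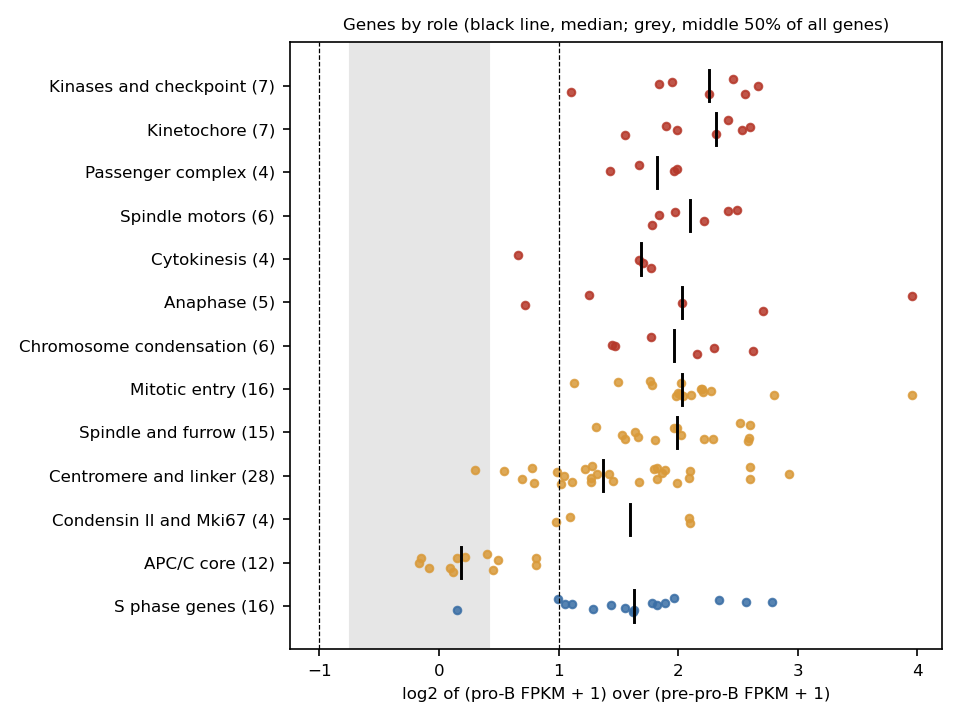
Log2 difference between the libraries of each gene (points, spread vertically for clarity) by role, members in red, other mitotic genes in orange and S phase genes in blue, with the number of genes in brackets, the median as a black line, 2-fold as dashed lines and the middle 50% of all genes counted in grey. Red points lie right of the upper dashed line except Kif23 and Fzr1, and the 12 APC/C core subunits lie between -0.16 and 0.81.

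The mitotic genes differed together with those of DNA replication. Of 16 S phase genes, 14 were 2-fold or more above the pre-pro-B level and 0 lower, with a median of 1.63 and a range of 0.15 (*Cdt1*) to 2.78 (*Tyms*). E2F letters were found in 7 of their 14 promoters (50.0%, 13 genes matched), CCAAT in 11 of 14, and a CHR within 50 bases of the start in 0 of 14. Over the promoters of all genes counted, the shares were 3.12%, 38% and 3.21% in the same order. For the CHR, 0 of 14 thus lies near the share of all genes counted.

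The libraries matched their labels by cell type markers. The 7 B lineage genes (*Cd79a*, *Cd79b*, *Igll1*, *Vpreb1*, *Pax5*, *Blnk* and *Rag1*) were 2-fold or more above the pre-pro-B level in 7 of 7 cases. Their summed FPKM was 30.9 in the pre-pro-B library against 1899 in the pro-B library. The 5 genes of the progenitor list (*Cd34*, *Kit*, *Flt3*, *Tyrobp* and *Fcer1g*) were lower in 5 of 5, with 1802 and 5.56. Of these, *Tyrobp* and *Fcer1g* encode adaptors that are not particular to progenitors, and they had 463 and 395 in the pre-pro-B library. *Ebf1* had 64.0 (interval 2.78 to 149) in the *Ebf1* -/- library and 273 (interval 8.50 to 729) in the other, and *Rag2* 22.9 (interval 1.75 to 44.3) in the *Rag2* -/- library and 34.5 (interval 2.88 to 66.7) in the other, so each targeted gene was lower in its own null cells and neither was at 0. An FPKM covers a whole transcript and does not tell which part of it was read. Stromal genes were examined because OP-9 cells shared the cultures. Of 8 such genes, 5 reached an FPKM of 1 in a library, and these 5 summed to 18.6 in the pre-pro-B library against 10.1 in the pro-B library. *Pdgfrb* made up 15.9 of the former, *Postn* was listed at 0 in both libraries and *Lum* in pre-pro-B cells, and *Cxcl12*, *Col1a2*, *Sparc* and *Col3a1* were the higher ones in pro-B cells, at most 2.92. The part of stromal RNA in the mitotic levels was not tested.

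Reads of some members can also match other places in the genome. Transcripts of 11 members aligned to 19 further places in mm9 over at least 50% of their length at 85% identity or more. These members were *Aurkb*, *Bub3*, *Cdc20*, *Kif11*, *Kif2c*, *Mad2l1*, *Ndc80*, *Plk1*, *Prc1*, *Top2a* and *Tpx2*. *Cdc20* had 4 such copies, the closest at 94.1% identity over 96.7% of the transcript, and *Ndc80* had 3, the most complete of them at 91.5% over 100% of it. The authors' alignment kept reads with several matches and Cuffdiff shared them out. How many reads of these 11 were shared in this way was not tested. Matches shorter or less alike than these limits were not counted for any member. The 28 members without such a copy include *Pttg1*, *Ube2c*, *Kif23* and *Fzr1*.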

How the data were processed

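RNA was rRNA-depleted and made into strand-specific libraries, 1 per cell type, read to a nominal 90 M single-end reads of 97 bp. The authors trimmed the reads, aligned them to mm9 with TopHat (version 1.5 in the submitters' processing notes) and estimated FPKM, with 95% limits, for each RefSeq transcript with Cuffdiff 2.1.1, using multi-read correction and no scaling between libraries. Deposited p-values, q-values and fold changes of the authors' own comparison were not used.

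Of 30485 transcripts, the 26968 protein-coding ones were kept. Of their 26580 accessions, 26173 were named from RefSeq, and the deposited FPKM were summed per gene. Genes with an FPKM of 1 or more in either library were counted, with a pseudocount of 1 and a 2-fold limit. The 39 members, the other lists and the rules were chosen with earlier results of these data known, and APC/C core subunits and other subgroups and families after values were seen. All 39 members are given with both FPKM and with intervals, of the other mitotic genes the 5 with the largest differences in each direction past 2-fold, and other lists by counts, medians and ranges. Depth per transcript is approximate, from length and nominal reads. Gene coordinates are GENCODE's on mm9, and promoters are RefSeq's on GRCm38.p6, with no conversion between them. Further genomic copies were searched with minimap2 2.31. Computations ran in Python 3.11.15 with pandas 2.3.3, numpy 2.4.6 and scipy 1.17.1, and figures in matplotlib 3.10.9, and the fold counts and motif search were tested on simulated data. Of 81 names listed for other mitotic genes, 75 were found, 5 were older symbols of these and *Kif14* was not matched. One gene of the marker lists is not reported here. The alternatives were other pseudocounts, filters, scalings, limits and transcript choices.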

Additional observations from a re-analysis of the deposited data

How the results depend on the processing

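No paired analysis was possible because each cell type has 1 library, and leaving out a replicate was not possible for the same reason. The number of members 2-fold or more above the pre-pro-B level was 36 after rescaling to TPM and 37 under the other pseudocounts, filters, scaling and transcript choices, and it was 39 at a 1.5-fold limit. The number lower was 0 under all of them. The median log2 difference of the members ran from 1.88 (TPM) to 2.06 (median-ratio scaling). The share of all genes counted 2-fold or more higher ran from 6.34% (no filter on low FPKM) to 14.3% (no pseudocount). At the 1.5-fold limit, 20.1% of all genes counted were 1.5-fold or more higher. Before the pseudocount is added, TPM shifts the log2 ratio of each gene by -0.12 and median-ratio scaling by 0.09. Of single members, *Bub3* alone changed its side of the 2-fold limit, with a log2 difference of 0.99 in TPM, and no member changed direction. Of the other mitotic genes 53 (TPM) to 58 (no pseudocount and median-ratio scaling) were 2-fold or more higher, and 63 passed 1.5-fold. Leaving out the APC/C core subunits, an alternative chosen after seeing the data, kept 56 with a median of 1.83. With 1 library per cell type, the spread between cultures is not known for any of these values.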

Other observations

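Relatives of several members, many of them with tasks outside mitosis, were examined after the values of the members were seen. Of 5 topoisomerase genes, *Top2a* alone was 2-fold or more above the pre-pro-B level. *Top2b*, the relative that dividing and resting cells both use, had 129 in pre-pro-B and 191 in pro-B cells (0.57 on the log2 scale). By these FPKM *Top2b* stood close to *Top2a* in pre-pro-B cells (138) and below it in pro-B cells (622). The pro-B interval of *Top2a* (0.477 to 2569.8) includes the *Top2b* level. *Top1* had 60.97 in pre-pro-B and 106 in pro-B cells (0.79). Of 12 kinesin genes of cargo transport and related tasks with an FPKM of 1 or more in either library, 2 (*Kif1b* and *Kif2a*, the latter also known to act at spindle poles) were 2-fold or more higher and 3 were lower by as much, with a median of 0.11, beside 6 of 6 higher among the spindle group. With so few genes, these transport kinesin counts lie near the shares over all genes counted (12.2% higher and 19.1% lower). *Kif5b*, the main kinesin heavy chain of many cells, had 73.8 in pre-pro-B and 97.7 in pro-B cells (0.4), while *Kif13a* had 20.6 in pre-pro-B and 3.66 in pro-B cells (-2.21).

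The tubulins, from which the spindle is built, lay on both sides of the limit. Of 11 tubulin genes counted, 4 were 2-fold or more above the pre-pro-B level and 4 were lower by as much. Over all genes counted the shares were 12.2% and 19.1%. *Tubb5*, the most abundant, had 587 in pre-pro-B and 820.2 in pro-B cells (0.48). *Tubb4b* had 50.6 in pre-pro-B and 160.3 in pro-B cells (1.65) and *Tuba1a* 6.93 in pre-pro-B and 22.4 in pro-B cells (1.56), whereas *Tubb2a* had 6.76 in pre-pro-B and 0.802 in pro-B cells (-2.11) and *Tuba4a* 25.2 in pre-pro-B and 11.9 in pro-B cells (-1.02). Tubulin genes resemble each other closely, so reads may be split between them. Of the polo kinases, *Plk4*, which drives centriole duplication, had 16.97 in pre-pro-B and 66.8 in pro-B cells (1.92), beside 1.95 for *Plk1*, and the stress-linked *Plk2* had 0.745 in pre-pro-B and 1.39 in pro-B cells (0.45).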
